A study of Mus musculus with 18 samples.

Results

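The lacrimal gland (LG) was compared between male mice of the NOD.H-2b and the BALB/c strain at 6 months (6M) of age, the latest of the 3 ages sampled. The comparison comprised 6 of the 18 mice of the series, 3 per strain, chosen by their strain and age labels, and each library came from 1 gland of 1 mouse after removal of its capsule. NOD.H-2b (NOD.B10Sn-H2b/J) is an inbred NOD-derived strain of H2b haplotype used as a model of primary Sjögren's syndrome. BALB/c (BALB/cJ), of H2d haplotype, was the control strain. The strains differ across the whole genome, so the disease and other differences between the strains cannot be told apart, and no littermate or congenic control was part of the comparison. Glands were sampled whole, and in such bulk RNA fewer cells of a type and less RNA per cell cannot be told apart.

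The LG is an exocrine gland whose acinar cells release water and proteins into the tear film, through ducts and with the help of contractile myoepithelial cells. In Sjögren's syndrome, lymphocytes gather in foci around ducts and vessels, and these foci can take on features of lymphoid organs. Interferons, chemokines and antigen presentation are known parts of that response, and plasma cells in the gland normally supply IgA to the tears.

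The counts per gene summed to 103936830, 52244088 and 50032070 in the BALB/c mice and to 58993318, 51117182 and 50470457 in the NOD.H-2b mice, and BALB/c replicate 1 was thus the deepest library. Levels are given as CPM, the counts relative to the library total after scaling by the TMM factors of edgeR, and compare 1 gene between mice, not different genes. In pairs of mice of the same strain, the root mean square log2 difference over the 500 most different genes lay between 1.57 and 2.28. Pairs of different strains lay between 5.69 and 6.46 apart, so the strains did not overlap in this distance.

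Genes of lymphocytes, interferon responses and antigen presentation were higher in the NOD.H-2b gland, while several of the most abundant secretory genes were lower. Of 17750 genes tested, 3338 (18.8%) were higher and 1071 (6.03%) were lower in NOD.H-2b by at least 2-fold at a false discovery rate (FDR) under 0.05, together 4409 genes (24.8%). Differences of named genes are log2 values of NOD.H-2b over BALB/c with p adjusted over all genes tested. Fitted differences of at least 16-fold were found for 873 of the higher and 103 of the lower genes. Of the genes tested, 478 had 1 group at the floor of at most 3 counts in every mouse. For these, the fitted fold can lie above the bound that the counts allow. They passed the filter through the other group alone, so their direction was fixed in advance. Counts of called members below include them. They were 6 of 25 B cell, 4 of 25 T cell, 4 of 14 germinal centre and 5 of 22 lymphoid tissue genes. Among other lists, they were 4 of 41 chemokine and 22 of 181 immunoglobulin variable genes. The share of higher genes was largest among genes of low level, with 30.8% of genes with an average log2 CPM under 0 and 2.13% of those between 6 and 8, where 3.50% were lower. Of the 220 genes at 8 and above, 6.36% were higher and 10.0% lower. Counts of genes whose exons overlap those of a gene on the opposite strand are uncertain, since the strand setting is not stated, which holds for Nos1, Dnase1, Fgg, Bcl6, Il21, Foxp3, Cxcr5, Hc, Gbp2, Jak1, Nlrc5, Me1, Tnc, Cd37, Baiap2l1, Pllp, St8sia6, Ttn, Neb, Ckm, Itpr3, Krt7, Krt8, Krt10, Lipe and mt-Co1 among the genes named. The median log2 fold change of all genes tested was -0.004 under TMM.

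These directions are relative to the scaling. The TMM factors were 0.884, 0.890 and 0.854 in BALB/c and 1.26, 1.07 and 1.10 in NOD.H-2b, and with library totals alone the median of all genes moved to 0.38. With TMM over a list of 40 epithelial structure genes it moved to 0.57. The share of higher genes among all genes called was 75.7% under TMM, 88.1% under library totals (4442 higher, 600 lower) and 91.7% under the epithelial scaling (5264 higher, 474 lower).

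**Figure D1:**
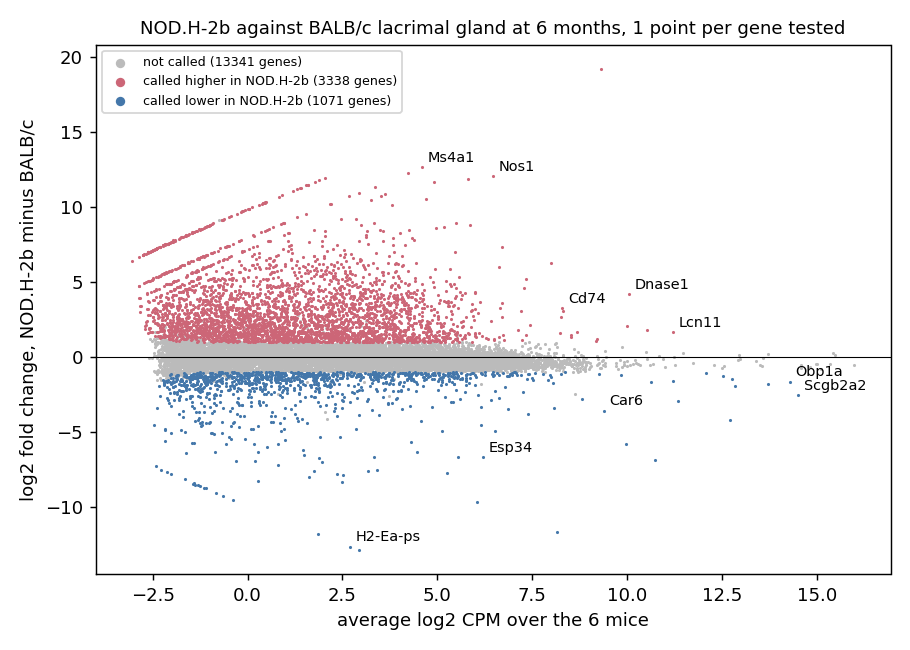
Log2 fold change of NOD.H-2b over BALB/c at 6 months against the average log2 CPM of the 6 mice, with 1 point for each of the 17750 genes tested. The 3338 genes called higher lie mostly at low average levels, and the 1071 genes called lower include abundant secretory genes such as Scgb2a2 and Obp1a.

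Secretory products took much of the RNA in both strains, and individual products differed in opposite directions. The 10 genes with the most counts, mainly secretoglobins and the lipocalin gene Mup4, held between 35.6% and 37.8% of all counts in each mouse. Scgb2a2, a member of the secretoglobin family of small secreted proteins, had 34480, 41440 and 42950 CPM in the BALB/c mice and 4030, 6777 and 9644 CPM in the NOD.H-2b mice, a log2 difference of -2.54 ± 0.30 (SE, adjusted p = 9.63e-05). Obp1a, which encodes an odorant-binding lipocalin, had 33610, 29500 and 27560 CPM in BALB/c and 5723, 9431 and 13770 CPM in NOD.H-2b, a log2 difference of -1.65 ± 0.29 (SE, adjusted p = 0.00111). In both genes every NOD.H-2b mouse lay below every BALB/c mouse, replicate 1 lowest and replicate 3 highest of its group. Lcn11, another lipocalin gene, went the other way, with 1156, 913 and 1328 CPM in BALB/c and 3031, 4447 and 3373 CPM in NOD.H-2b, a log2 difference of 1.68 ± 0.19 (SE, adjusted p = 4.38e-05).

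Of 28 tested secretoglobins 3 were higher and 1 was lower by at least 2-fold, against 18.8% and 6.03% of all genes tested, and the median log2 fold change was -0.51, which became 0.06 under the epithelial scaling. The family held 33.8, 34.6 and 35.6% of all counts in the BALB/c mice and 31.6, 34.4 and 35.3% in the NOD.H-2b mice, and these shares of raw counts overlap between the strains. Summed as CPM under TMM, the members had 382100, 389500 and 416600 in BALB/c and 251000, 321000 and 320400 in NOD.H-2b, which do not overlap. Abundant members went both ways in their shares of raw counts. Scgb2b2 held 3.78, 3.91 and 3.62% in BALB/c and 5.61, 5.32 and 5.68% in NOD.H-2b, and Scgb1b2 was larger too. Scgb2b7 held 6.76, 6.36 and 7.08% in BALB/c and 5.75, 6.035 and 6.17% in NOD.H-2b, and Scgb2b24 was smaller too. The exocrine gland secreted peptides, pheromones released in tears, were lower for 7 of 13 members and higher for 1, against 6.03% lower and 18.8% higher over all genes tested, with a median of -1.77 against -0.004 over all genes tested. Esp15 had 21830, 18770 and 21700 CPM in BALB/c and 5258, 6822 and 6186 CPM in NOD.H-2b, and Esp24, the higher member, had 82.9, 81.9 and 89.7 CPM in BALB/c and 399, 607 and 584 CPM in NOD.H-2b. The groups did not overlap for either peptide, and the directions were opposite. Esp34 had 146, 134 and 161 CPM in BALB/c against 0.148, 1.04 and 3.35 CPM in NOD.H-2b, near silent in the latter strain. These families hold near-identical copies, and since the treatment of reads with several matches is not stated, the values of single members are uncertain.

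Tear proteins differed in opposite directions. Lpo, the lactoperoxidase of tears and saliva, had 7626, 7449 and 9478 CPM in BALB/c and 2641, 4319 and 3501 CPM in NOD.H-2b, a log2 difference of -1.23 ± 0.19 (SE, adjusted p = 0.000432). Under library totals and under the epithelial scaling Lpo was no longer called. Car6, a secreted carbonic anhydrase, had 1290, 1024 and 1391 CPM in BALB/c and 124, 93 and 92.1 CPM in NOD.H-2b, a log2 difference of -3.58 ± 0.17 (SE, adjusted p = 2.8e-07). All NOD.H-2b mice were below all BALB/c mice for both enzymes, and the gap was wider for Car6. Ltf, which encodes the iron-binding protein lactoferrin, had 529, 562 and 615 CPM in BALB/c and 627, 561 and 618 CPM in NOD.H-2b, so that the groups overlapped. Slpi, an inhibitor of serine proteases at mucosal surfaces, was higher, with 2.36, 6.8 and 5.62 CPM in BALB/c and 18.3, 22.8 and 17.3 CPM in NOD.H-2b. The list had 4 higher and 3 lower members of 19, against 18.8% and 6.03% of all genes tested, and its median of -0.15 turned to 0.24 under library totals, 0.43 under the epithelial scaling and 0.29 without a filter. It also lay above 0 without BALB/c replicate 2 (0.02), BALB/c replicate 3 (0.092), NOD.H-2b replicate 1 (0.009) or NOD.H-2b replicate 3 (0.006), so the list had no direction that held.

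Single abundant genes outside these families separated the strains almost completely. Nos1, the neuronal nitric oxide synthase (ENSMUSG00000029361, chromosome 5, 117781032 to 117958840 of GRCm38), had 0.0218, 0.043 and 0.0703 CPM in BALB/c, at most 3 counts per library, and 122, 230.4 and 178 CPM in NOD.H-2b, at least 1735-fold higher than a floor of 3 counts per library. Dnase1, a secreted nuclease (ENSMUSG00000005980, chromosome 16, 4036942 to 4040024), had 109, 72.9 and 145 CPM in BALB/c and 1794, 1905 and 2315 CPM in NOD.H-2b, a log2 difference of 4.20 ± 0.26 (SE, adjusted p = 3.23e-06). Neither gene overlapped between the strains, and Nos1 went from the limit of detection to a high level. Fgg, a chain of fibrinogen, had 11.5, 8.42 and 4.71 CPM in BALB/c and 259, 364 and 316 CPM in NOD.H-2b. Ceacam2, a cell adhesion molecule with a close paralog, had 0.338, 0.0861 and 0.258 CPM in BALB/c and 95.4, 139 and 111 CPM in NOD.H-2b. In the opposite direction, Rasd2, a small GTPase of the Ras family, had 59.8, 71.1 and 72.8 CPM in BALB/c and 1.97, 2.69 and 1.93 CPM in NOD.H-2b. A2ml1, a protease inhibitor of the alpha-2-macroglobulin family, had 243, 317 and 379 CPM in BALB/c and 28.7, 14.9 and 24 CPM in NOD.H-2b. The groups were far apart for each of these genes.

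The epithelial frame of the gland differed little per gene. Of 40 genes for junctions, keratins and polarity, 3 were higher by at least 2-fold, against 18.8% of all genes tested, while 28 were lower at an FDR under 0.05 by less than 2-fold. Over all 17750 genes tested, 4575 were lower at that FDR by any fold. The median was -0.57, -0.20 under library totals and -0.01 under the scaling built on this list itself. Epcam, an adhesion molecule of epithelial cells, had 114, 110.2 and 105 CPM in BALB/c and 91, 101 and 100.5 CPM in NOD.H-2b. The NOD.H-2b mice lay just below the BALB/c mice, the test did not call a difference, and the direction turned under library totals and the epithelial scaling. Krt18, a keratin of simple epithelia, had 258, 259 and 211 CPM in BALB/c and 148, 167 and 147 CPM in NOD.H-2b, lower in every mouse but by less than 2-fold. The members called higher were all of low level, and Krt19 lost its call without BALB/c replicate 1 (1.02) or replicate 3 (1.39), or without NOD.H-2b replicate 1 (1.38) or replicate 2 (1.48).

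Transcription factors of gland epithelium were lower for 2 of 13 members, against 6.03% of all genes tested, with a median of -0.51, which turned to 0.06 under the epithelial scaling. Elf5, a factor of secretory epithelium, had 66.9, 64.2 and 71.4 CPM in BALB/c and 14.7, 22.2 and 20.6 CPM in NOD.H-2b, a log2 difference of -1.82 ± 0.14 (SE, adjusted p = 9.13e-06). Barx2, a homeobox factor of LG development, had 16.1, 14.9 and 13.4 CPM in BALB/c and 4.04, 3.4 and 4.26 CPM in NOD.H-2b, a log2 difference of -1.93 ± 0.13 (SE, adjusted p = 1.42e-06). In both genes all NOD.H-2b mice were below all BALB/c mice. Bhlha15, the acinar factor Mist1, had 769.8, 724 and 994 CPM in BALB/c and 421, 608 and 605 CPM in NOD.H-2b and did not reach the 2-fold threshold. Of 11 myoepithelial genes 1 was higher, against 18.8% of all genes tested, and the median of -0.15 turned to 0.24 under library totals. Acta2, their smooth muscle actin, overlapped between the groups and had 25.5, 32.7 and 38.5 CPM in BALB/c and 29, 30 and 26.9 CPM in NOD.H-2b.

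Receptors that trigger secretion were among the lower genes. Adra1a, an alpha-adrenergic receptor, had 32.2, 32 and 42.3 CPM in BALB/c and 13.7, 13.6 and 15.2 CPM in NOD.H-2b, a log2 difference of -1.32 ± 0.12 (SE, adjusted p = 9.73e-06), and was not called under library totals (-0.93) or the epithelial scaling (-0.74). Vipr1, a receptor of vasoactive intestinal peptide, had 64.3, 55.8 and 55.8 CPM in BALB/c and 14.8, 17.6 and 17.9 CPM in NOD.H-2b, a log2 difference of -1.81 ± 0.0986 (SE, adjusted p = 5.45e-07). Aqp5, the apical water channel of acinar cells, had 118, 112 and 144 CPM in BALB/c and 85.9, 105 and 103 CPM in NOD.H-2b. Its NOD.H-2b mice were slightly below the BALB/c mice, a direction that turned under library totals and the epithelial scaling. In all, 4 of 25 genes of fluid secretion were higher and 3 lower, exocytosis had 2 higher members of 19, and ER folding genes had 1 higher and 1 lower of 31, against 18.8% higher and 6.03% lower over all genes tested. Of these calls, the higher Stx2 of exocytosis was lost without BALB/c replicate 1 (0.87) or NOD.H-2b replicate 1 (0.97). The lower ER gene Chac1 was lost without BALB/c replicate 1 (-1.89), BALB/c replicate 2 (-1.59), NOD.H-2b replicate 1 (-1.47) or NOD.H-2b replicate 3 (-1.65). The ER median of -0.39 turned to 0.17 under the epithelial scaling.

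**Figure D2:**
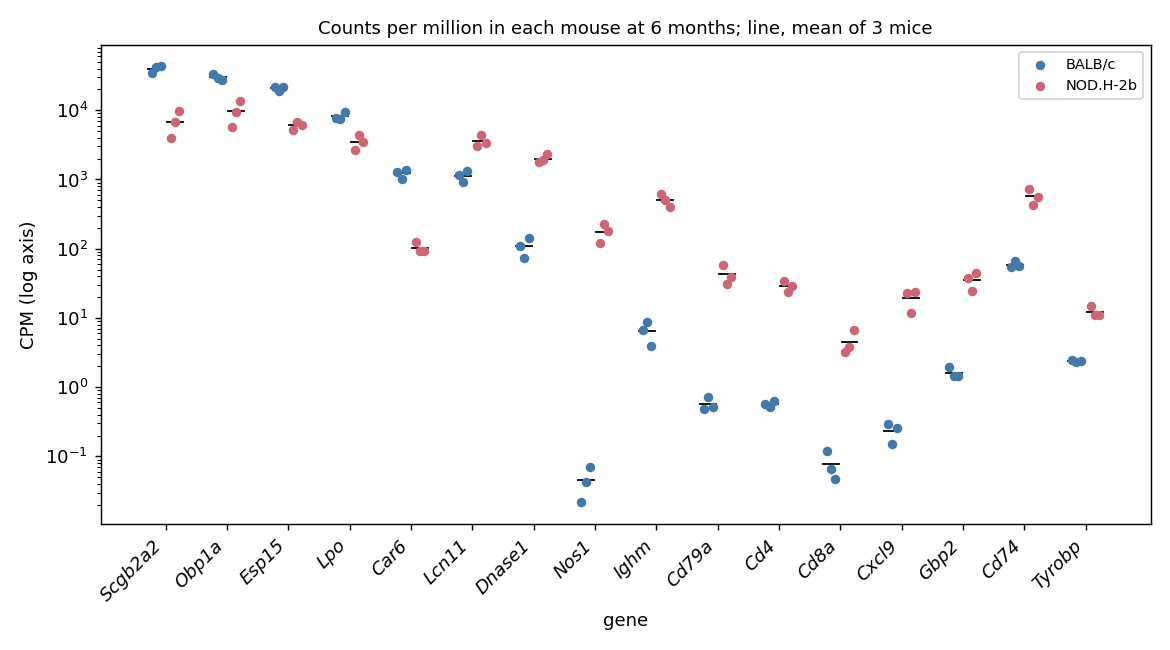
CPM of 16 genes in each of the 3 BALB/c and 3 NOD.H-2b mice of 6 months on a log axis, with a line at the mean of each group. The secretory genes Scgb2a2, Obp1a, Esp15, Lpo and Car6 are lower in every NOD.H-2b mouse, and the other genes are higher in every NOD.H-2b mouse.

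All 25 of 25 tested B cell genes were higher in NOD.H-2b, against 18.8% of all genes tested, with a median log2 fold change of 7.03, or 7.67 without BALB/c replicate 1 and 4.25 over the genes with at least 10 counts in every mouse. Ms4a1, which encodes the B cell surface protein CD20 (ENSMUSG00000024673, chromosome 19, 11249675 to 11266241), had 0.0109, 0 and 0 CPM in BALB/c and 66.3, 35 and 44 CPM in NOD.H-2b, at least 498-fold higher against the floor of 3 counts per library. Cd79a, part of the B cell receptor complex, had 0.479, 0.732 and 0.515 CPM in BALB/c and 58.8, 30.9 and 39 CPM in NOD.H-2b, a log2 difference of 6.26 ± 0.33 (SE, adjusted p = 8.01e-06). Ms4a1 had at most 1 count in any BALB/c mouse, Cd79a was low but counted in each, and NOD.H-2b replicate 1 was the highest of its group for both. Cr2, the complement receptor of follicular B cells and follicular dendritic cells, was at least 334-fold higher. Bank1, a B cell scaffold protein, had 0.196, 0.194 and 0.0937 CPM in BALB/c and 101, 51.6 and 62.3 CPM in NOD.H-2b. The B cell list held 0.00427, 0.0047 and 0.00395% of all counts in the BALB/c mice and 0.158, 0.0727 and 0.0945% in the NOD.H-2b mice (two-sided exact permutation p = 0.1, the smallest that 3 against 3 mice can give).

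Genes of germinal centres and follicular helper T cells were higher for 11 of 14 tested members, against 18.8% of all genes tested, with a median of 3.98, or 2.83 with genes at the floor set to their bound and 0.12 over the genes with at least 10 counts in every mouse. Il21, the cytokine of follicular helper cells, had no count in the BALB/c mice and 2.1, 0.712 and 1.26 CPM in NOD.H-2b, at least 10.1-fold higher. Icos, a costimulator of the same cells, had no count in BALB/c and 0.97, 0.767 and 1.22 CPM in NOD.H-2b, at least 10.9-fold higher. Bcl6, their transcription factor, which epithelial and other cells also express, had 60.4, 147 and 32 CPM in BALB/c and 55.1, 57.5 and 46.6 CPM in NOD.H-2b. Its groups overlapped, with the widest spread in BALB/c.

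Antibody genes were counted in both strains. Ighm, the heavy chain of IgM, had 6.63, 8.61 and 3.86 CPM in BALB/c and 608, 500.3 and 394 CPM in NOD.H-2b, a log2 difference of 6.29 ± 0.35 (SE, adjusted p = 1.64e-05). Igha, the heavy chain of IgA, had 526, 886 and 586 CPM in BALB/c and 2129, 2621 and 2117 CPM in NOD.H-2b, a log2 difference of 1.78 ± 0.20 (SE, adjusted p = 6.55e-05). All NOD.H-2b mice were above all BALB/c mice for both chains, and the gap was wider for IgM. Jchain, which joins chains of secreted IgA and IgM, had 149.7, 280.5 and 156 CPM in BALB/c and 657, 682 and 541 CPM in NOD.H-2b. Mzb1, a chaperone of antibody-secreting cells, had 2.46, 3.79 and 2.79 CPM in BALB/c and 16.3, 16.2 and 12.9 CPM in NOD.H-2b. Sdc1, a plasma cell marker that epithelium also expresses, overlapped between the groups, with 24.2, 25.6 and 18.9 CPM in BALB/c and 20.8, 27.5 and 23.5 CPM in NOD.H-2b.

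Of the plasma cell list 6 of 12 members were higher, against 18.8% of all genes tested, and of the immunoglobulin constant genes 10 of 11. Of the variable genes 112 of 181 were higher, against the same 18.8%, and 16 were lower (8.84%), near the 6.03% of all genes tested. Ighg2c had 0.751, 1.83 and 1.41 CPM in BALB/c and 350.3, 146 and 119 CPM in NOD.H-2b, and since BALB/c mice carry the related Ighg2a allele, which is not in the GRCm38 reference, its value is uncertain. Variable genes differ between the strains' alleles too. In NOD.H-2b, Igkv8-27 was at least 26.5-fold lower, while Ighv5-16 was at least 33.3-fold higher but lost its call without NOD.H-2b replicate 1 or replicate 2 (11.58 and 11.71 on the log2 scale). The part of allele differences in these values was not tested.

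T cell genes were higher for 25 of 25 tested members, against 18.8% of all genes tested, with a median log2 fold change of 5.68. Cd4, the coreceptor of helper T cells, had 0.566, 0.517 and 0.632 CPM in BALB/c and 34.2, 23.9 and 28.5 CPM in NOD.H-2b, a log2 difference of 5.66 ± 0.17 (SE, adjusted p = 2.82e-08). Cd8a, the coreceptor of cytotoxic T cells, had 0.12, 0.0646 and 0.0468 CPM in BALB/c and 3.18, 3.78 and 6.66 CPM in NOD.H-2b, a log2 difference of 5.68 ± 0.42 (SE, adjusted p = 3.95e-06). Both were near 0 in all BALB/c mice, and Cd8a was highest in NOD.H-2b replicate 3, Cd4 in replicate 1. Without BALB/c replicate 1 the difference of Cd8a was 6.27. Foxp3, the factor of regulatory T cells, had 0.0544, 0 and 0 CPM in BALB/c and 6.56, 4.77 and 6.49 CPM in NOD.H-2b. Tbx21, the factor of type 1 helper and cytotoxic cells, was at least 21.1-fold higher.

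Cytotoxic and checkpoint genes followed the same direction. Of the cytotoxic list 15 of 16 members were higher, against 18.8% of all genes tested, with a median of 4.24, and of the immune checkpoints 12 of 12, with a median of 5.71. In each list 4 of these members were at the floor in 1 group and entered the test through the other alone. Set at their bounds where BALB/c was at the floor, the medians were 3.85 and 4.54, and that of the checkpoints was 4.05 over the genes with at least 10 counts in every mouse. Prf1, the pore-forming perforin, had 0.12, 0.043 and 0.0937 CPM in BALB/c and 1.35, 1.22 and 1.8 CPM in NOD.H-2b, a log2 difference of 3.96 ± 0.39 (SE, adjusted p = 1.86e-05). Gzmk, a granzyme of T cells, had no count in BALB/c and 0.781, 0.712 and 0.522 CPM in NOD.H-2b. Ctla4, an inhibitory receptor of T cells, had no count in BALB/c and 1.05, 0.621 and 0.899 CPM in NOD.H-2b, at least 8.84-fold higher. Gzmb, the granzyme of activated killer cells, had too few counts to be tested. For the 3 genes tested, every NOD.H-2b mouse was above every BALB/c mouse.

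Genes that organise lymphoid tissue were higher for 18 of 22 tested members, against 18.8% of all genes tested, with a median of 4.52, or 3.53 with floor genes at their bound and 2.00 over the genes with at least 10 counts in every mouse. Glycam1, a glycoprotein of high endothelial venules, had 0, 0 and 0.0234 CPM in BALB/c and 11.3, 6.32 and 8.9 CPM in NOD.H-2b, at least 90-fold higher. Cxcr5, the receptor that draws B cells and follicular helper cells into follicles, had 0.0435, 0.043 and 0 CPM in BALB/c and 20.8, 10.6 and 15.5 CPM in NOD.H-2b. Both were at or near 0 in all BALB/c mice and clearly counted in all NOD.H-2b mice. Ccl19, a chemokine of T cell zones, had no count in BALB/c and 0.323, 0.329 and 0.216 CPM in NOD.H-2b, a low level and at least 3.07-fold higher. Cxcl12, which stromal cells express at rest, had 21.5, 20.3 and 22.5 CPM in BALB/c and 38.5, 36 and 30.9 CPM in NOD.H-2b, below the 2-fold threshold under TMM but called under library totals.

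Myeloid genes were counted in BALB/c glands too, and most were higher in NOD.H-2b. Of the macrophage list 19 of 24 members were higher and 1 was lower, against 18.8% and 6.03% of all genes tested, with a median of 2.16. Adgre1, the macrophage surface protein F4/80, had 4.38, 6.05 and 5.22 CPM in BALB/c and 27.7, 22.6 and 20 CPM in NOD.H-2b, a log2 difference of 2.18 ± 0.15 (SE, adjusted p = 2.76e-06). Fcgr1, a receptor of IgG, had 0.544, 0.775 and 0.258 CPM in BALB/c and 11.7, 7.42 and 6.49 CPM in NOD.H-2b, a log2 difference of 4.00 ± 0.36 (SE, adjusted p = 3.07e-05). Cd163, a scavenger receptor of resident macrophages, was the lower member, with 9.88, 10.2 and 14.7 CPM in BALB/c and 4.05, 7.09 and 5.33 CPM in NOD.H-2b, and it was not called under library totals or the epithelial scaling, nor without BALB/c replicate 3 (-0.88) or NOD.H-2b replicate 1 (-0.89). For the first pair all NOD.H-2b mice lay above all BALB/c mice, and for Cd163 below them.

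Tyrobp, the signalling adaptor of myeloid and natural killer receptors, had 2.47, 2.28 and 2.41 CPM in BALB/c and 14.9, 11 and 11.1 CPM in NOD.H-2b, a log2 difference of 2.37 ± 0.15 (SE, adjusted p = 1.19e-06). In a list of Tyrobp and other genes 31 of 33 members were higher, against 18.8% of all genes tested, with a median of 3.02. That list also held C3, and Cd37 of the B cell list, so it was not limited to signalling partners of Tyrobp. Dendritic cell genes were higher for 13 of 15 members, against the same 18.8%, and Flt3, the growth factor receptor of dendritic cell precursors, had 0.915, 1.01 and 0.89 CPM in BALB/c and 11.4, 9.26 and 9.34 CPM in NOD.H-2b. Of the neutrophil list only 5 members had enough counts and 2 were higher, Csf3r and Il1b, again against 18.8%. Il1b lost its call with the replicate number as a block and without a filter. The defining markers S100a8, S100a9 and Ly6g had too few counts in both strains to be tested.

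Chemokines and their receptors were higher for 32 of 41 tested members and lower for 2, against 18.8% and 6.03% of all genes tested, with a median of 3.15, or 1.37 over the genes with at least 10 counts in every mouse. Cxcl9, an interferon-induced ligand of CXCR3 on T cells, had 0.294, 0.151 and 0.258 CPM in BALB/c and 23.1, 11.8 and 23.6 CPM in NOD.H-2b, a log2 difference of 6.30 ± 0.38 (SE, adjusted p = 7.64e-06). Ccl28, a mucosal chemokine of epithelium that attracts IgA-producing cells, was lower, with 370.4, 469 and 418 CPM in BALB/c and 158, 228 and 193 CPM in NOD.H-2b, a log2 difference of -1.12 ± 0.14 (SE, adjusted p = 0.000122). Ccl24, a ligand of the eosinophil receptor CCR3, had 0.882, 0.947 and 0.679 CPM in BALB/c and 0.0404, 0.0365 and 0.036 CPM in NOD.H-2b, at least 12.4-fold lower. The groups did not overlap for any of these 3 chemokines, though Ccl28 was not called under library totals (-0.75) or the epithelial scaling (-0.56), nor without NOD.H-2b replicate 1 (-0.99). Complement genes were higher for 16 of 22 members, against the same 18.8%, and C3, the central component, had 59.8, 68.6 and 61.5 CPM in BALB/c and 332, 272 and 251 CPM in NOD.H-2b, a log2 difference of 2.17 ± 0.12 (SE, adjusted p = 5.02e-07). Hc, which encodes C5, was the lower member, with 0.272, 0.366 and 0.258 CPM in BALB/c and 0.148, 0.146 and 0.09 CPM in NOD.H-2b, at low counts, and it lost its call without any 1 of the 6 mice (-1.31 to -1.001), under library totals (-0.80), under the epithelial scaling (-0.61) and with DESeq2 (-1.20).

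Interferon-induced genes were higher in NOD.H-2b across families. All 18 of 18 tested interferon-induced GTPases, which act against microbes inside cells, were higher, against 18.8% of all genes tested, with a median of 3.66. Gbp2 had 1.96, 1.46 and 1.45 CPM in BALB/c and 38, 24.7 and 44.6 CPM in NOD.H-2b, a log2 difference of 4.43 ± 0.26 (SE, adjusted p = 6.17e-06). Of the type I interferon-stimulated genes 27 of 29 were higher, against the same 18.8%, with a median of 2.41. Zbp1, a sensor of nucleic acids, had 0.664, 0.71 and 0.749 CPM in BALB/c and 29, 18.6 and 22.7 CPM in NOD.H-2b, a log2 difference of 5.06 ± 0.19 (SE, adjusted p = 1.11e-07). Every NOD.H-2b mouse was above every BALB/c mouse for both genes, with NOD.H-2b replicate 2 the lowest of its group. In the interferon gamma axis 12 of 14 members were higher, again against 18.8%, while the kinase Jak1 was not called, with 157, 152 and 158 CPM in BALB/c and 179.6, 166 and 169.5 CPM in NOD.H-2b.

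Promoters of these genes were searched for the letters GAAANNGAAA on both strands, the core of the interferon-stimulated response element bound by interferon regulatory factors. Windows of 300 bases from RefSeq (GRCm38.p6), 1 per gene, were matched by symbol. The letters were found in 10 of 11 matched promoters of the GTPases (90.9%) and 11 of 20 of the type I genes (55%), against 943 of 27025 promoters of all genes (3.49%). Of genes called higher 6.3% of 2001 matched promoters held them, and of genes called lower 2.33% of 601. A match is a description, not a site or a cause. The promoters of Isg15, Ifit1 and Gbp2 are shown as members of both families that were called higher, 5′ to 3′ on the strand of the gene, with the matched letters in capitals, overlapping matches joined.
Isg15, chr4:156200769-156201068, minus strand: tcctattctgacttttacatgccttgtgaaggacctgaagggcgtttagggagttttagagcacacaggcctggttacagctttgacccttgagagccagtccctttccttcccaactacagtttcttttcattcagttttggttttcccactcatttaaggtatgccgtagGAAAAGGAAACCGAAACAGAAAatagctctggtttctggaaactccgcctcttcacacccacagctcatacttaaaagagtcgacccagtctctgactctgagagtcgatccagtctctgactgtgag
Ifit1, chr19:34640639-34640938, plus strand: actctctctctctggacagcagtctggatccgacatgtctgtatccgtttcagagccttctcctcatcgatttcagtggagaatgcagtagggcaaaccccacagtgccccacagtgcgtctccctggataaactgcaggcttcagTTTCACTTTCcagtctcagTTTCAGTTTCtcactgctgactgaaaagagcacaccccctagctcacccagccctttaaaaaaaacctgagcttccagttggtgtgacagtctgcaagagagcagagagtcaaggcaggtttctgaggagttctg
Gbp2, chr3:142620413-142620712, plus strand: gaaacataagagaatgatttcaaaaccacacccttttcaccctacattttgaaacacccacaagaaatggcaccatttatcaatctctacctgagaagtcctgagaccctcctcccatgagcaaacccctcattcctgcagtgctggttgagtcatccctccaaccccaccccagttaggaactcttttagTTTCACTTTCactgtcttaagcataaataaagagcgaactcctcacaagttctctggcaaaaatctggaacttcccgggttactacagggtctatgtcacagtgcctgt

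Antigen presentation genes were higher in both classes. Cd74, the invariant chain that chaperones MHC class II, had 54.9, 66.2 and 55.6 CPM in BALB/c and 732, 425 and 551 CPM in NOD.H-2b, a log2 difference of 3.27 ± 0.20 (SE, adjusted p = 2.94e-06). B2m, the light chain of MHC class I, had 222, 227 and 171 CPM in BALB/c and 587, 460.1 and 534 CPM in NOD.H-2b, a log2 difference of 1.35 ± 0.13 (SE, adjusted p = 2.06e-05). Neither gene is on chromosome 17, which carries the H2 region, and both were higher in all NOD.H-2b mice. Of the class II list 11 of 12 members were higher and 1 was lower, and of class I and peptide loading 19 of 22 were higher and 2 lower, against 18.8% higher and 6.03% lower over all genes tested. Nlrc5, the transactivator of class I genes, had 2.85, 2.65 and 0.937 CPM in BALB/c and 107, 70.4 and 100.4 CPM in NOD.H-2b.

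Genes inside the H2 region went both ways. H2-Q7, a nonclassical class I gene, had 1.42, 1.44 and 1.03 CPM in BALB/c and 96.7, 61.7 and 78.7 CPM in NOD.H-2b. H2-Q10, another class I gene, had 3.19, 3.12 and 2.74 CPM in BALB/c and 0.175, 0.201 and 0.072 CPM in NOD.H-2b, and H2-Q1 was at least 39.3-fold lower. H2-Ea-ps, the class II alpha chain that mice of b haplotype do not express, had 13.2, 14.6 and 11.2 CPM in BALB/c and no count in NOD.H-2b, at least 204-fold lower. The strains carry different H2 haplotypes, the GRCm38 reference has the b haplotype, and these genes have close copies, so their values are uncertain and the part of mapping in them was not tested.

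Genes of cell death were higher for 16 of 28 members, against 18.8% of all genes tested. Ripk3, a kinase of necroptosis, had 0.0653, 0.258 and 0.0468 CPM in BALB/c and 2.75, 1.88 and 2.14 CPM in NOD.H-2b, and Mcl1, a survival factor, had 80.7, 80.5 and 92 CPM in BALB/c and 140.2, 118 and 128 CPM in NOD.H-2b, below the 2-fold threshold under TMM but called under library totals. Cell cycle genes were higher for 15 of 26 members, against the same 18.8%, with a median of 2.37, or 3.89 without BALB/c replicate 3 and 1.33 over the genes with at least 10 counts in every mouse. Mcm6, of the DNA replication helicase, had 0.599, 0.473 and 2.32 CPM in BALB/c and 14.4, 11.1 and 12.3 CPM in NOD.H-2b, a log2 difference of 3.56 ± 0.60 (SE, adjusted p = 0.0042), or 4.51 without BALB/c replicate 3. Mki67, a marker of cycling cells, overlapped between groups, with 28.9, 29.9 and 41.4 CPM in BALB/c and 43.7, 45.4 and 35.1 CPM in NOD.H-2b.

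Most metabolic lists had medians below 0, as did epithelial structure (-0.57), and single enzymes differed far more. Acacb, the mitochondrial acetyl-CoA carboxylase, had 62.6, 56 and 70.5 CPM in BALB/c and 9.13, 9.87 and 11.2 CPM in NOD.H-2b, a log2 difference of -2.65 ± 0.11 (SE, adjusted p = 1.5e-07). Me1, the malic enzyme that supplies NADPH for lipid synthesis, had 87.2, 84 and 92.2 CPM in BALB/c and 13.1, 20.8 and 18.4 CPM in NOD.H-2b, a log2 difference of -2.34 ± 0.15 (SE, adjusted p = 3.8e-06). Ggt1, a gamma-glutamyltransferase of glutathione turnover, had 33.1, 34 and 38.7 CPM in BALB/c and 3.33, 3.42 and 4.44 CPM in NOD.H-2b, a log2 difference of -3.25 ± 0.13 (SE, adjusted p = 1.13e-07). All 3 enzymes were lower in every NOD.H-2b mouse than in any BALB/c mouse. Abcg1, a cholesterol exporter of macrophages and other cells, was higher, with 9.57, 10 and 7.38 CPM in BALB/c and 58.7, 43.9 and 44.7 CPM in NOD.H-2b. Ddc, which makes dopamine and serotonin from their precursors, was higher too, with 0.207, 0.129 and 0.0234 CPM in BALB/c and 3.96, 15.8 and 8.67 CPM in NOD.H-2b and a wide spread among the NOD.H-2b mice.

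The counts of called members in the metabolic lists stand against 18.8% of all genes tested for higher and 6.03% for lower genes. Fatty acid synthesis had 5 higher and 5 lower of 30 members, with a median of -0.44 that turned to 0.15 under the epithelial scaling. Beta oxidation had 4 lower members of 24, with a median of -0.51 that turned to 0.06 under the same scaling. Cpt1a, which carries fatty acids into mitochondria, had 91.6, 98.1 and 75.7 CPM in BALB/c and 38.1, 39.5 and 38.4 CPM in NOD.H-2b, a log2 difference of -1.19 ± 0.0969 (SE, adjusted p = 5.47e-06) that was not called under library totals (-0.81) or the epithelial scaling (-0.62), nor was the lower member Slc25a20 (-0.73 and -0.54). The TCA cycle had 2 lower members of 24 and a median of -0.33, 0.05 under library totals. The call of Pdhx, 1 of them, was lost under library totals (-0.64), the epithelial scaling, DESeq2 and the filters other than that of edgeR, and without BALB/c replicate 1 (-0.99), BALB/c replicate 2 (-0.94), NOD.H-2b replicate 1 (-0.83) or NOD.H-2b replicate 3 (-0.89). Suclg2, a subunit of succinate-CoA ligase, was lower, though not called under the epithelial scaling, with 43.9, 43.6 and 40.2 CPM in BALB/c and 13.6, 16.5 and 16.2 CPM in NOD.H-2b. Nuclear genes of the respiratory chain had 1 lower member of 73 and a median of -0.28, 0.10 under library totals. Mitochondrially encoded genes had 2 lower of 9, among them mt-Nd2, with 696, 828 and 970.4 CPM in BALB/c and 353, 403 and 404 CPM in NOD.H-2b, which was not called under library totals (-0.72) or the epithelial scaling (-0.54), nor without BALB/c replicate 3 (-0.98). Amino acid synthesis had 5 higher and 5 lower of 27 and a median of -0.35, 0.04 under library totals, and cholesterol synthesis and transport had 4 higher members of 25.

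Fibroblast and matrix genes were higher for 5 of 20 members, against 18.8% of all genes tested, with a median of 0.22, and Col1a1, a chain of type I collagen, had 42, 55.7 and 48.4 CPM in BALB/c and 52.4, 53.9 and 40.6 CPM in NOD.H-2b. Its groups overlapped. Tnc, the matrix glycoprotein tenascin C, had 0.152, 0.129 and 0.0937 CPM in BALB/c and 2.18, 1.97 and 1.94 CPM in NOD.H-2b, a log2 difference of 3.95 ± 0.29 (SE, adjusted p = 2.74e-06). Endothelial genes were higher for 2 of 13 members, near the 18.8% of all genes tested and so not a result about the list. Of these, Vwf lost its call without BALB/c replicate 1 (0.97) or NOD.H-2b replicate 2 (0.96). Timp1 of the matrix list lost its call without BALB/c replicate 1 (1.33), BALB/c replicate 3 (1.20), NOD.H-2b replicate 1 (1.42) or NOD.H-2b replicate 2 (1.30). The other endothelial member was Pecam1, an adhesion molecule that leukocytes also carry, with 7.97, 6.26 and 7.75 CPM in BALB/c and 43.9, 29.2 and 33.3 CPM in NOD.H-2b, while Cdh5, the cadherin of endothelial junctions, had 4.55, 4.93 and 3.91 CPM in BALB/c and 8.59, 8.37 and 7.72 CPM in NOD.H-2b, below the 2-fold threshold under TMM but called under library totals. Nerve and Schwann cell genes were higher for 1 of 7 members, L1cam, against the same 18.8%.

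Markers of other cell types and of tissues near the gland were low. The counts of called members below stand against 18.8% of all genes tested for higher and 6.03% for lower genes. Mast cell genes were lower for 3 of 7 members, with Cpa3, a mast cell protease, at 2, 2.48 and 3.93 CPM in BALB/c and 1.05, 0.859 and 0.917 CPM in NOD.H-2b, though Cpa3 (-0.97) and Mcpt4 (-0.91) were not called under the epithelial scaling, and the list's most abundant gene Kit, which epithelium also expresses, higher. The list held 0.00175, 0.00203 and 0.00233% of counts in BALB/c and 0.00465, 0.00326 and 0.00346% in NOD.H-2b. The skeletal muscle list held 0.000107, 8.61e-05 and 0.000156% of counts in BALB/c and 0.00189, 0.000867 and 0.00136% in NOD.H-2b. Its most abundant gene was Ttn, which was higher together with Neb among 3 tested members, while Ckm was lower and the defining marker Acta1 had at most 4 counts in any mouse. Adipocyte genes held 0.00156, 0.00119 and 0.0012% and 0.00175, 0.00166 and 0.00128% of counts, with Lipe the most abundant, Pparg higher and Cidea lower of 7 tested, and Adipoq too low to be tested. Salivary genes held 0.000115, 0.000178 and 4.4e-05% and 7.46e-05, 0.00028 and 6.14e-05%, of which Amy1 alone was tested and was lower, a call lost under library totals (-1.10), under the epithelial scaling (-0.90), and without BALB/c replicate 2 (-1.08) or NOD.H-2b replicate 3 (-1.31), and Bpifa2 was at 0 in BALB/c. Epidermal genes held 0.000116, 0.000117 and 0.000128% and 0.000203, 0.000205 and 0.0002%, with Sbsn the most abundant and higher. Krt10 went the other way in every NOD.H-2b mouse but was not called (-0.43). Lor was too low to be tested, with 0.218, 0.387 and 0.304 CPM in BALB/c and 0.0135, 0.0183 and 0 CPM in NOD.H-2b. Erythroid genes held 0.00355, 0.0027 and 0.00502% and 0.00689, 0.0056 and 0.00369%, with Hbb-bs the most abundant and overlapping between groups, and the near-identical alpha globin genes split, Hba-a1 higher and Hba-a2 at least 25.1-fold lower, which is uncertain. Hba-a1 lost its call without BALB/c replicate 1 (0.92), BALB/c replicate 2 (0.80), NOD.H-2b replicate 1 (0.89) or NOD.H-2b replicate 2 (0.96). The part of these tissues in the differences above was not tested.

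Among 15 immediate early genes, which respond to handling, 1 was lower, near the 6.03% over all genes tested and so not a result about the list, namely the transcription factor gene Egr1, with 8.82, 29 and 40.5 CPM in BALB/c and 6.88, 4.82 and 4.8 CPM in NOD.H-2b. BALB/c replicate 1 was close to the NOD.H-2b mice for this gene, and its call was lost without any 1 of the other mice (-2.42 to -1.77), under library totals (-1.82) and under the epithelial scaling (-1.64). The 15 circadian clock genes tested had a median of -0.18, which turned to 0.20 under library totals, 0.40 under the epithelial scaling and 0.13 without BALB/c replicate 2.

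The strain difference at 6M was then set beside those at the younger ages, in 1 fit of all 18 mice. For the 3338 genes higher at 6M the median log2 fold change was 1.69 at 2 months (2M), 2.13 at 4 months (4M) and 2.52 at 6M, and for the 1071 lower genes -0.98, -1.23 and -1.55. These medians rest on genes chosen at 6M and carry no test. Of the higher genes 1714 were called the same way at 2M and 2492 at 4M, and 709 at neither age, and of the lower genes 454, 628 and 389. At 2M, 2706 of the higher and 1022 of the lower genes had enough counts to be tested.

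Tested gene by gene, the strain difference changed between 2M and 6M for 976 of 19117 genes (5.11%), upward for 689 (3.60%) and downward for 287 (1.50%). Without NOD.H-2b 6M replicate 1 the count was 511, and without NOD.H-2b 2M replicate 1 it was 614. Between 4M and 6M edgeR called 0 genes in either direction (0%), with 2533 genes at an unadjusted p under 0.05, and DESeq2's Wald test called 21. Without NOD.H-2b 4M replicate 1 edgeR called 48 genes, without BALB/c 6M replicate 1 it called 6, and without NOD.H-2b 6M replicate 3 it called 1. Ggt1 had a strain difference of -1.30 at 2M, -2.31 at 4M and -3.28 at 6M on the log2 scale, a change of -1.98 from 2M to 6M (adjusted p = 9.68e-05). Cd74 went from 1.65 to 3.24, a change of 1.59 (adjusted p = 0.0273). Igha narrowed from 3.90 to 1.75, a change of -2.16 (adjusted p = 0.0299). The strain difference thus widened from 2M to 6M for the enzyme and the class II chaperone and narrowed for the IgA chain. Which strain changed was not tested.

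List medians from the same fit differed in course. B cell genes had 4.50, 6.30 and 7.00 at the 3 ages and MHC class II 2.05, 2.75 and 3.90, with 25 of 25 and 11 of 12 members called higher at 6M, against 18.8% of all genes tested. Type I interferon-stimulated genes had 2.59, 2.23 and 2.38, and macrophage genes 1.98, 1.75 and 2.13. Epithelial structure had -0.01, -0.34 and -0.61. The change from 2M to 6M was called upward for 6 of 25 B cell genes and 7 of 12 class II genes, against 3.60% of all genes tested for it.

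**Figure D3:**
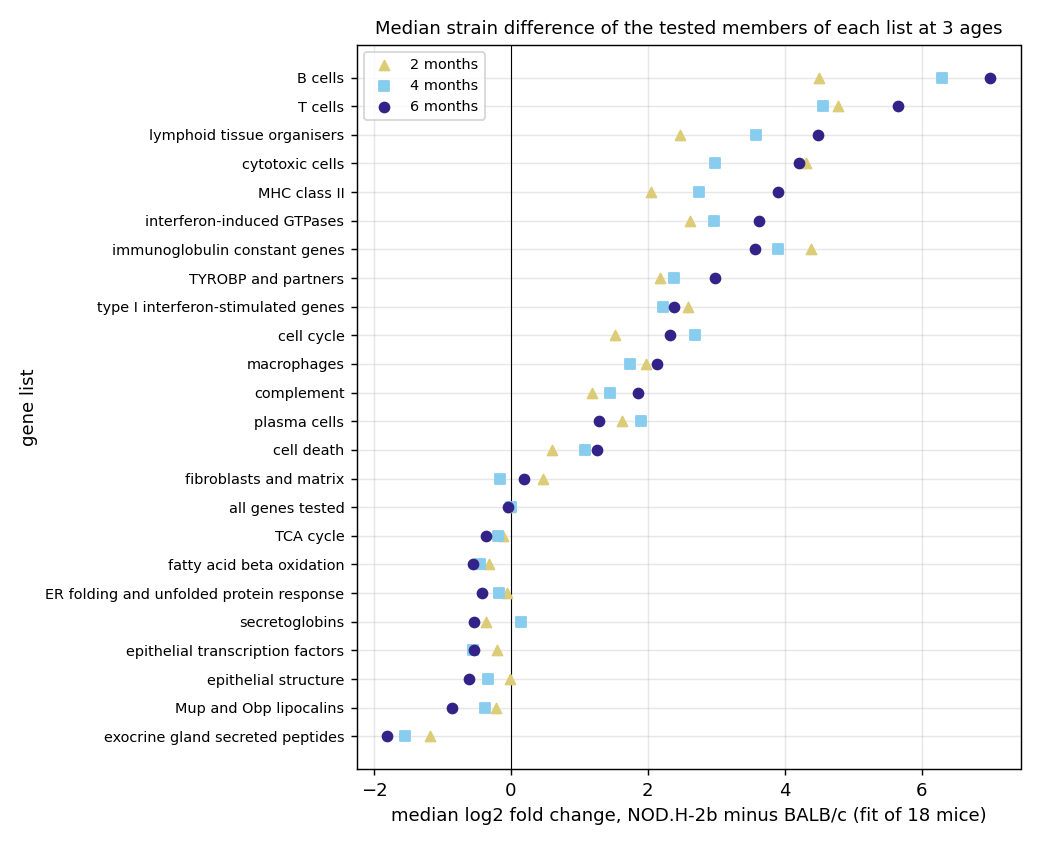
Median log2 fold change of NOD.H-2b over BALB/c for the members of 24 groups tested at 6 months, all genes included, at 2, 4 and 6 months in the fit of 18 mice. B cell genes move from 4.50 to 7.00, and epithelial structure from -0.01 to -0.61 under TMM.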

How the data were processed

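Total RNA of whole glands was depleted of ribosomal RNA and sequenced. Values are the raw counts per gene that the authors deposited, made from paired reads with cutadapt for trimming, STAR for alignment (GRCm38) and HTSeq for counting. A deposited table of normalized log2 values was not used. The sources used here state no annotation release, strand setting or handling of multi-mapping reads. Names and coordinates are from GENCODE M21, which held 54079 of 54232 genes.

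Analyses used R 4.3.3, edgeR 4.0.16 (filterByExpr, TMM, robust quasi-likelihood test, Benjamini-Hochberg adjustment) on the 6 mice of 6M, and a fit of 18 mice with 6 group means for changes of the strain difference. Standard errors came from the log2 fold change and F statistic. Genes were called where they differed by at least 2-fold with an FDR under 0.05. Groups with at most 3 counts in every mouse were at the floor, and bounds cover counting error only. DESeq2 1.42.0, other scalings and filters, thinning to equal totals, a replicate block and leaving out each mouse were alternatives. The fits were tested on simulated data.

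Named genes were, among called protein coding genes whose average log2 CPM was 5 or more, the 8 each way with the largest change and the 4 each way with the highest level. To these were added the 4 genes rising and the 4 falling with the lowest p from 2M to 6M (average log2 CPM of 3 or more), in each list the 2 called members with the largest change, the member with the highest level and up to 2 called members of the opposite direction, fixed cell type markers and genes the study names. Other genes named were chosen after their values were seen, among them Isg15 and Ifit1 for their promoters. Some genes are not reported here. The mice and gene lists were chosen with earlier results of these data known.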

Additional observations from a re-analysis of the deposited data

Results flagged for a closer look

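The strain difference of the following 25 named genes changed from 2M to 6M by at least 1 on the log2 scale at an FDR under 0.05, in edgeR's fit of 18 mice. Values are the change of the log2 fold change of NOD.H-2b over BALB/c. It moved upward by 2.19 for Cd37, 1.59 for Cd74, 1.77 for H2-Q6, 1.04 for Zbtb46, 1.72 for Pecam1, 1.34 for Rgs5 and 2.59 for Tnc. Further upward changes were 1.43 for Smc4, 1.27 for St8sia6 and 1.14 for Esp24.

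It moved downward for metabolic enzymes, with -2.08 for Acacb, -1.98 for Ggt1 and -1.23 for Ggh. The antibody genes Igha and Jchain had -2.16 and -1.98, the mast cell proteases Cpa3 and Mcpt4 had -1.36 and -1.38, and the macrophage genes Cd163 and Ccl24 had -1.29 and -2.51. Cidea had -3.06, Pllp -1.53, Rasd2 -1.995, Baiap2l1 -1.41, Egr1 -2.92 and mt-Co2 -2.32, the last at under 1 CPM in all mice of 6M. No cause of these changes was tested.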

How the results depend on the processing

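Across the alternatives at 6M, the count of higher genes moved by over 1.5 times with the epithelial scaling (5264) and with at least 10 counts in every mouse (1950 of 14999 genes tested), and that of lower genes with library totals (600) and the epithelial scaling (474). DESeq2's Wald test called 3327 higher and 1031 lower. Without each mouse in turn, 3113 to 3526 genes were higher and 1007 to 1166 lower. With the replicate number as a block, 3317 genes were higher and 1054 lower, the change from 2M to 6M was called for 928 genes and that from 4M to 6M for 0 (2581 at an unadjusted p under 0.05). Mice with the same number did not deviate together (correlations 0.012, -0.004 and -0.011, against -0.047 to 0.042 for pairs of different number). The labels do not say whether the numbers pair the mice, and a small shared effect could go unseen in these correlations. Without each mouse in turn, the change from 2M to 6M was called for 511 to 1128 genes and that from 4M to 6M for 0 to 48, and DESeq2 called 21 for the latter. The cause of these shifts was not tested.

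Of 205 genes chosen by the rule for named genes and tested, 153 were called and 126 of these under every alternative that tested them. No called gene changed sign, while genes that were not called did. Under library totals and the epithelial scaling, log2 fold changes turned to 0.31 and 0.50 for Cdh1, 0.24 and 0.43 for Myh11, 0.38 and 0.57 for Dcn, 0.35 and 0.54 for Krt7, 0.20 and 0.39 for Col3a1, 0.0542 and 0.24 for Gsn, 0.22 and 0.41 for Acta2, 0.27 and 0.46 for Itpr3, 0.0331 and 0.22 for Aqp5, 0.21 and 0.40 for Epcam, 0.0676 and 0.27 for Dmbt1, 0.34 and 0.52 for Hbb-bs, and 0.37 and 0.56 for mt-Co1. Under the epithelial scaling alone they turned to 0.15 for Krt10, 0.0776 for Nr4a1, 0.19 for Atp5b, 0.0761 for Clock, 0.16 for Krt8 and 0.0184 for Scgb2b7. With at least 10 counts they turned to 0.0351 for Dcn, 0.0219 for Krt7 and 0.0389 for mt-Co1. Col1a1 turned to -0.0251 with the upper quartile and -0.0257 with all 18 mice, and Krt14 to -0.0004 and -0.0025 there and to -0.0034 after thinning. Without each mouse in turn, the values ranged from -0.97 to 0.19 for Bcl6, -0.094 to 0.13 for Col1a1, -0.0778 to 0.0992 for Dcn, -0.28 to 0.24 for Hbb-bs, -0.21 to 0.20 for Krt14, -0.0845 to 0.0742 for Krt7, -1.57 to 0.40 for Plin1, -0.0626 to 0.16 for Sdc1 and -0.0673 to 0.0489 for mt-Co1.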
